A study of Mus musculus with 8 samples.

Results

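Accessibility at the loci of 8 immediate early genes was compared between old and young mouse hematopoietic stem cells (HSCs), the marrow cells that sustain blood formation. The loci were those of Jun, Fos, Fosb, Junb, Egr1, Klf6, Nr4a1 and Atf3. Members were the peaks lying fully inside 1 fixed mm9 window per gene, 25 to 75 kb long, and numbered 79 of the 126871 peaks in the table. The windows held 10 peaks for Jun, 10 for Fos, 13 for Fosb, 8 for Junb, 9 for Egr1, 8 for Klf6, 12 for Nr4a1 and 9 for Atf3. A further 2 peaks at the Junb window and 1 at the Nr4a1 window crossed an edge and were left out. The windows were given with the gene names, and no mm9 annotation was used, so which part of a gene a peak covers was not analysed here. Other genes of the pathway were not analysed here for the same reason. A peak is named by its window, and which gene it serves was not tested at any of the 8 loci.

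The study measured open chromatin by bulk ATAC-seq, in which a transposase cuts accessible DNA and reads over a region follow its accessibility. There were 4 libraries from old and 4 from young mice of strain C57BL/6, each from bone marrow cells sorted as lineage-negative, Sca-1+, Kit+, CD150+ and CD48-. The labels give no treatment, no genotype and no age in months, and do not say whether each replicate came from its own animal. The p-values therefore rest on library-to-library spread, part or all of which may be technical. In a bulk sample, more cells with an open site and a more open site per cell cannot be told apart. Totals ran from 4200905 to 5129684 counts per library. At the peaks of the whole table called without old replicate 4, that library lay by the median between the young and the other old libraries. Those peaks were chosen on the other libraries, and the same measure was not computed for each other old library.

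Immediate early genes are switched on within minutes of a growth factor, cytokine or stress signal, without new protein synthesis. Jun, Junb, Fos and Fosb encode subunits of AP-1, a dimeric transcription factor in which a Fos protein needs a Jun partner. Atf3 encodes a related stress-induced factor that pairs with Jun proteins, Egr1 and Klf6 encode zinc-finger factors, and Nr4a1 encodes an orphan nuclear receptor. In mouse HSCs, Egr1 is known to restrain proliferation and mobilization, and Nr4a1 and Junb are known to restrain HSC expansion.

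RefSeq promoter sequences (GRCm38.p6) were matched for 7 of the 8 genes, with none for Egr1. They are shown for 4 genes to let the elements that inducible promoters carry be read beside the loci. Each line is the 250 bases before the annotated start, 5′ to 3′ on the gene's strand, in GRCm38 coordinates. Capitals mark matches on either strand to the Jun-type AP-1 element TGACATCA, the CRE core TGACGT, the CRE-like variant TGCGTCA or the AP-1 element TGANTCA.

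Jun, chr4:95052223-95052472, minus strand: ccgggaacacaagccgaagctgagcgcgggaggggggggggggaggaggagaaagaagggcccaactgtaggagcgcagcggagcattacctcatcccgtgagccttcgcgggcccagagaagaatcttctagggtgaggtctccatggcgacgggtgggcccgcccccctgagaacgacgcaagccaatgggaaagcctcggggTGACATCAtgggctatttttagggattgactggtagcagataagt

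Klf6, chr13:5861239-5861488, plus strand: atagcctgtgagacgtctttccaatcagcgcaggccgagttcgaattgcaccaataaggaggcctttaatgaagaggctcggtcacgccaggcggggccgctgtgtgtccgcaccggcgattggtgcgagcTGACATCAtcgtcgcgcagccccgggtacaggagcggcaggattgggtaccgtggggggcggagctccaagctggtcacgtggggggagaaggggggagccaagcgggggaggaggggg

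Fos, chr12:85473640-85473889, plus strand: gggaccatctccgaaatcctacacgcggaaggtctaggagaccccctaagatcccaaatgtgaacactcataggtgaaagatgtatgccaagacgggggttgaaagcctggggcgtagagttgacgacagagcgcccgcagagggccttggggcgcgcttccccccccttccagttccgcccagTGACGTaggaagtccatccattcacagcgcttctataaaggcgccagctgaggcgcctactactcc

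Nr4a1, chr15:101266596-101266845, plus strand: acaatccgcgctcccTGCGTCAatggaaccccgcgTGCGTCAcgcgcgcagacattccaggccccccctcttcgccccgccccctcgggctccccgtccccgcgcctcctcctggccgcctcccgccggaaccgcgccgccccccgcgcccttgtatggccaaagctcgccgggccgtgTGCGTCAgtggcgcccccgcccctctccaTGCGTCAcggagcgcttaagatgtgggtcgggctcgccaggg

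The Jun-type element TGACATCA stood 38 to 45 bases before the Jun start and 112 to 119 bases before the Klf6 start, and in 2.93% of the 32851 RefSeq promoters of the same length. The CRE core TGACGT was found in Fos and Atf3 (6.47% of all promoters). The variant TGCGTCA, picked after the sequences were read, occurred 4 times in Nr4a1 and once in Fosb (1.75% of all promoters). The letters TGANTCA were in none of the 7 windows and in 6.75% of all promoters. The search also covered other elements. The CArG box, a run of A or T between CC and GG, was in none of the 7 (1.47% of all promoters). CCAAT was in Jun, Junb and Klf6 (33.8% of all promoters), TATAAA in Fos (12.4%) and GCGNGGGCG in Fosb and Nr4a1 (4.70%). A match is a description of these letters, and no peak was placed on a promoter, since the peaks are in another build.

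Chromatin at these loci was more often higher than lower in old HSCs. Of the 79 peaks, 69 passed the filter on low counts and were tested, and 22 rose and 3 fell in old libraries (quasi-likelihood test of edgeR, p-values adjusted by Benjamini-Hochberg over all 73164 tested peaks, threshold 0.05). The background was 10% of peaks called higher and 10.4% called lower among all tested peaks, against 31.9% and 4.35% of the tested members. Members were strong peaks, with a median level of 22.5 CPM (a count scaled to the size of its library) against 6.45 CPM for all tested peaks. In the strongest quintile of tested peaks 14.3% rose and 7.87% fell, and of the 39 members in that quintile 15 rose and 1 fell. Without old replicate 4, 27 members rose and 5 fell, on a background of 14.5% and 15.5%. Those that passed without it but not with all libraries were 1 peak each at Fos, Junb and Klf6 and 2 at Nr4a1, all higher, and 1 each at Fosb and Atf3, both lower. They are listed for that fit, in which calls also rose over the whole table. Except for the strongest Nr4a1 peak, their level calls with another library left out are not given here.

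The median log2 fold change, old over young, was 0.23 over the tested members, 0.01 over all tested peaks and 0.06 over the strongest quintile. The log2 fold change was above 0 at 51 members, or 73.9% of those tested, against 51.0% of all tested peaks. At 20 members the 4 old libraries lay above the 4 young ones, and at 3 below them, where 10.5% and 10.6% of all tested peaks did so. Outside the Jun and Egr1 windows, which were set aside after their values were seen, 15 of 55 tested members rose, 2 fell and the median was 0.19. The 10 members that did not pass the filter were weak, with 0 to 19 counts per library and mean levels of 0.335 to 1.98 CPM. They were 2 peaks at Jun, 1 at Junb, 3 at Egr1, 1 at Klf6 and 3 at Atf3.

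**Figure D1:**
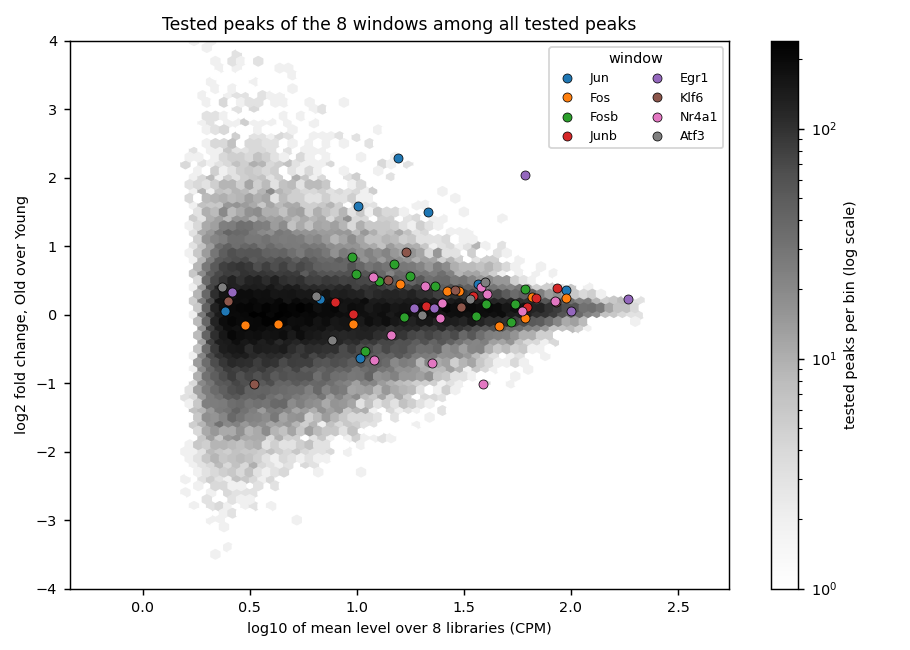
Log2 fold change, old over young, of every tested peak against the log10 of its mean level in CPM over the 8 libraries. Grey hexagons count all 73164 tested peaks (those beyond a change of 4 either way are not drawn), and coloured points are the 69 tested members, most of them strong and above 0, with 1 Egr1 peak and 3 Jun peaks highest.

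Summed over each window, accessibility rose in old libraries at 6 of the 8 loci and fell at 0 (edgeR, p-values adjusted over 27059 windows and 50 kb tiles of the table, of which 13.4% rose and 12.8% fell). The tiles were not matched to the windows in strength or length, so these shares are a rough background. In edgeR no window was lower at an unadjusted p below 0.05 either, and DESeq2's Wald test and limma voom also called 0 lower. The Jun window changed most. Its summed level was 209, 226, 227 and 258 CPM in old libraries and 154, 159, 140.4 and 152 CPM in young ones. This was a log2 fold change of 0.60 ± 0.06 (SE here and below; edgeR adjusted p = 1.82e-06), and every old library lay above every young one.

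The Egr1 window came next, with 449, 410.5, 426 and 412 CPM in old libraries against 319, 301, 343 and 336 CPM in young ones, a log2 fold change of 0.38 ± 0.05 (edgeR adjusted p = 1.23e-05). The changes of the other 4 windows that rose were smaller. The Klf6 window averaged 187 ± 12.2 CPM in old HSCs and 158 ± 7.85 CPM in young HSCs (SD, n = 4 each). The Junb window averaged 299 ± 10.3 CPM in old HSCs and 255 ± 6.15 CPM in young HSCs, and the Fosb window 364 ± 26.2 CPM in old and 319 ± 11 CPM in young ones. At Klf6, Junb and Fosb the groups did not overlap either, which 12.7% of all windows and tiles showed in this direction.

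The Atf3 window averaged 115 ± 8.71 CPM in old HSCs and 101 ± 6.50 CPM in young HSCs, with young replicate 4, at 109 CPM, above old replicate 1, at 108 CPM. Its log2 fold change of 0.20 ± 0.06 passed the test (edgeR adjusted p = 0.0275). The call was lost without old replicate 4 (adjusted p = 0.0590), young replicate 1 (0.0975) or young replicate 3 (0.0766). The Fos window had 390.4, 356, 341 and 331 CPM in old libraries and 289, 329, 347 and 325 CPM in young ones, with a log2 fold change of 0.14 ± 0.06 that did not pass (adjusted p = 0.0949). It passed without old replicate 4, at 0.17 (adjusted p = 0.0243). The Nr4a1 window had 415, 356, 390.2 and 319 CPM in old libraries and 327, 319, 401 and 447 CPM in young ones. These ranges overlapped almost fully, and the log2 fold change was -0.01 ± 0.13 (adjusted p = 0.952).

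**Figure D2:**
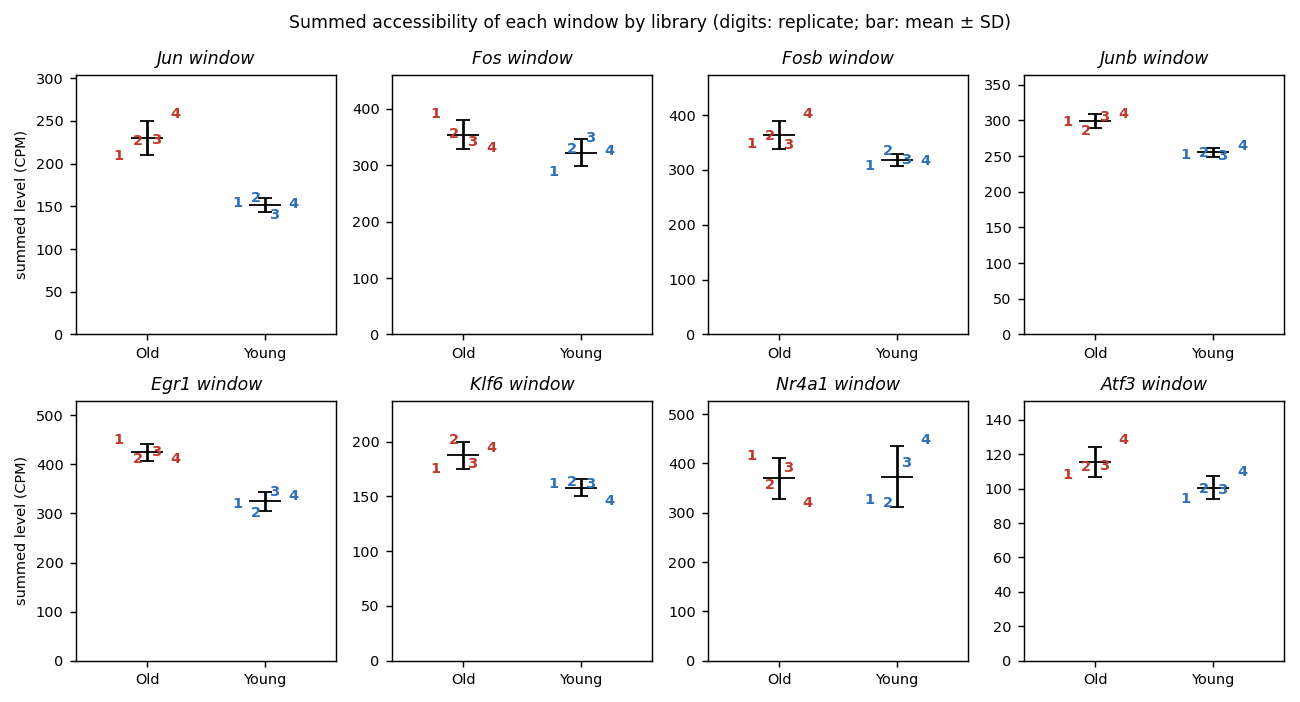
Summed level of all peaks of each window in CPM, in old (red) and young (blue) libraries, with digits for replicate numbers and bars for the mean ± SD of 4 libraries. Old libraries lie above young ones at Jun, Egr1, Fosb, Junb and Klf6, while the groups overlap at Fos, Nr4a1 and Atf3.

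Each peak was also set against the summed counts of the other tested peaks of its window in the same library, which cancels library scaling. Of the 69 peaks, 7 rose and 9 fell relative to the rest of their window (edgeR, adjusted over 60697 peaks of the table, of which 8.11% rose and 9.17% fell). These were 10.1% and 13.0% of the members, close to the shares over all peaks. The 7 that rose were 3 at Jun and 1 each at Fosb, Egr1, Klf6 and Nr4a1, and the 9 that fell were 2 each at Jun, Egr1 and Nr4a1 and 1 each at Fos, Fosb and Klf6. Peaks of 1 window serve as each other's rest, so a strong gain at some makes others relatively lower.

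Jun, which encodes an AP-1 subunit that can dimerize with itself, had the largest changes of the AP-1 subunit genes, at 3 adjacent peaks. RefSeq places Jun on the minus strand (GRCm38), so these peaks lay from the strongest peak towards lower coordinates, in the direction of transcription. The first, on chromosome 4 from 94714959 to 94715692 (mm9), had 22.1, 28.4, 31.4 and 45.1 CPM in old libraries against 10.5, 11.2, 12.5 and 11 CPM in young ones. Its log2 fold change was 1.5 ± 0.19 (edgeR adjusted p = 5.11e-05).

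The Jun peak from 94715778 to 94716208 had 18.8, 19.1, 30.9 and 34.5 CPM in old libraries and 7.46, 7.79, 3.25 and 2.59 CPM in young ones. Here the log2 fold change was 2.28 ± 0.34, a 4.87-fold rise (edgeR adjusted p = 0.00108). The Jun peak from 94716407 to 94716662 had 8.66, 15.8, 19.1 and 17.0 CPM in old HSCs against 6.76, 4.0, 5.0 and 4.52 CPM in young HSCs, a log2 fold change of 1.59 ± 0.24. At each of the 3 peaks the lowest old library lay above the highest young one. The young libraries were tight at the first peak and old replicate 1 was the lowest old library at each of the 3.

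Together the 3 Jun peaks summed to 72.7 ± 20.5 CPM in old HSCs and 21.6 ± 2.86 CPM in young HSCs (SD, n = 4 each). They made up 22.4%, 26.3%, 33.3% and 36.0% of the window's counts in old libraries and 15.3%, 13.7%, 14.1% and 11.4% in young ones. The other Jun peaks summed to 171 ± 6.18 CPM in old HSCs and 137 ± 7.75 CPM in young HSCs. The 3 were picked for their fold changes. Each also rose against the rest of the window, by 0.97 ± 0.19, 1.79 ± 0.30 and 1.01 ± 0.25 on the log2 scale (edgeR adjusted p = 0.00264, 0.00158 and 0.0103). Among the 18168 tested peaks at least as strong as the Jun peak from 94715778, 8 had a larger log2 fold change. For the peak from 94714959 it was 14 among 13305, and for the peak from 94716407 it was 103 among 26077.

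A Jun peak of 206 bases from 94717342 to 94717548, between this group and the strongest peak, went the other way. It had 8.40, 7.57, 7.38 and 9.10 CPM in old libraries and 13.1, 13.3, 12.8 and 11.2 CPM in young ones, with no overlap. On the log2 scale the change was -0.63 ± 0.17 (edgeR adjusted p = 0.0126), and -1.31 ± 0.19 against the rest of the window. Its neighbours on both sides, within a few kb, rose. The strongest Jun peak, from 94718629 to 94719646, had 107, 108, 101 and 113 CPM in old libraries and 79.8, 85.2, 73.8 and 94.1 CPM in young ones, with a change of 0.36 ± 0.07 on the log2 scale. Against the rest of the window it was lower, at -0.49 ± 0.14 (edgeR adjusted p = 0.0223), a call lost without old replicate 2 (0.0533) or 3 (0.0773) or young replicate 4 (0.0905). The adjoining peak from 94719826 to 94720244 rose by a similar 0.45 ± 0.10. The 2 tested Jun peaks farther out, 26.4 kb below and 10.5 kb above the strongest one, had log2 fold changes of 0.23 ± 0.27 and 0.05 ± 0.32 and did not pass. A weak Jun peak from 94704670 to 94704991, left out by the filter, had 13, 10, 15 and 7 reads in old libraries and 2, 3, 6 and 0 in young ones. It passed as higher when the filter was dropped (log2 fold change 2.01 ± 0.54, edgeR adjusted p = 0.0113).

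Egr1, the zinc-finger factor, held the strongest peak of the 8 windows and the member with the smallest p. On chromosome 18 from 35024586 to 35026107, a peak of 1521 bases had 109, 95.7, 113 and 73.2 CPM in old libraries against 23.8, 23.6, 25.5 and 21.8 CPM in young ones. The log2 fold change was 2.04 ± 0.13, or 4.12-fold (edgeR adjusted p = 5.51e-07). The 4 young libraries were within a narrow band, and old replicate 4, the lowest old library, was still far above them. This peak held 21.6 ± 3.23% of the window's counts in old HSCs and 6.96 ± 0.520% in young HSCs (SD, n = 4 each). Its log2 fold change against the rest of the window was 1.88 ± 0.14 (edgeR adjusted p = 2.04e-06). Of the 14633 peaks in the strongest quintile, 7 had a larger log2 fold change.

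The strongest Egr1 peak, 5.10 kb below it from 35019442 to 35021055, had 216, 201, 201 and 184 CPM in old libraries and 166, 162, 188 and 167 CPM in young ones. On the log2 scale the change was 0.23 ± 0.06 (edgeR adjusted p = 0.00625), a call lost with loess offsets, which remove trends with peak strength (0.13, adjusted p = 0.0638). Another strong Egr1 peak, from 35014793 to 35016254, had 102 ± 6.78 CPM in old HSCs and 98.4 ± 12.4 CPM in young HSCs, with a log2 fold change of 0.05 ± 0.08. Against the rest of the window this peak was lower, at -0.49 ± 0.12 (edgeR adjusted p = 0.0112), as was the strongest one, at -0.34 ± 0.09 (adjusted p = 0.0189, lost without old replicate 3, 0.0670, or young replicate 3, 0.0595). The other 3 tested Egr1 peaks had log2 fold changes of 0.10, 0.10 and 0.33, none past the test.

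**Figure D3:**
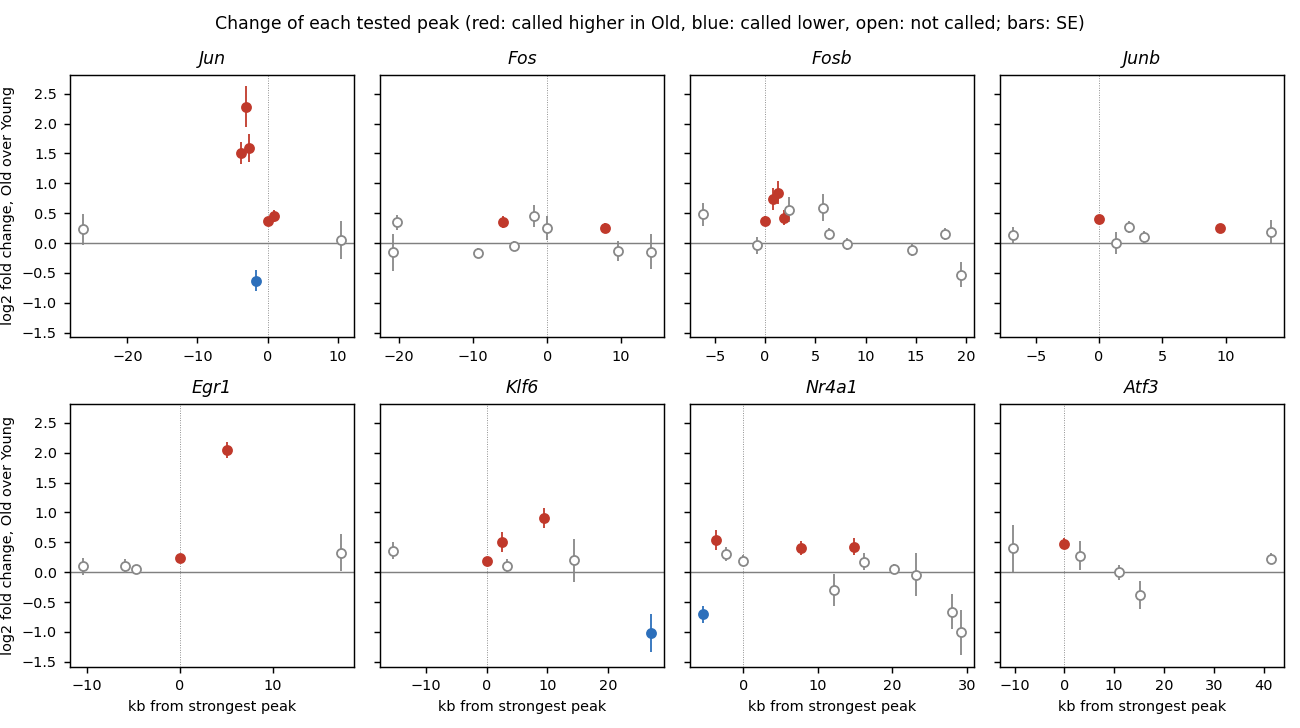
Log2 fold change, old over young, with its SE, of each of the 69 tested peaks against the distance in kb from the strongest peak of its window. Filled red points rose, filled blue points fell and open points were not called, and the largest rises sit 2.6 to 3.8 kb below the strongest Jun peak and 5.10 kb above the strongest Egr1 peak.

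Klf6, a zinc-finger factor that RefSeq places on the plus strand, had 3 peaks that rose and 1 that fell. The peak on chromosome 13 from 5869631 to 5870193, 9.49 kb above the strongest one, had 15.8, 25.5, 22.1 and 25.0 CPM in old libraries against 10, 13.5, 13.0 and 10.8 CPM in young ones. Its log2 fold change was 0.91 ± 0.16 (edgeR adjusted p = 0.000576), and 0.70 ± 0.18 against the rest of the window (adjusted p = 0.0124). The lowest old library, replicate 1, was above the highest young one. At the far end of the window a weak peak from 5887331 to 5887902 had 1.27, 1.89, 2.54 and 2.89 CPM in old HSCs and 5.13, 3.37, 5.50 and 3.88 CPM in young HSCs. The log2 fold change there was -1.02 ± 0.31 (edgeR adjusted p = 0.0252), and the call was lost without old replicate 1 or 2 or young replicate 1 or 3 (adjusted p = 0.0887, 0.0769, 0.0706 and 0.0773) and with DESeq2's Wald test (0.0843).

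The strongest Klf6 peak, from 5859900 to 5860943, had 90.8 ± 4.58 CPM in old HSCs and 80.3 ± 3.12 CPM in young HSCs, a log2 fold change of 0.18 ± 0.06 near the threshold (edgeR adjusted p = 0.0456). That call was lost without old replicate 2 (adjusted p = 0.124) and without each young library in turn (0.0695, 0.0586, 0.0682 and 0.128 for replicates 1 to 4). It was also lost with total counts (0.0914), with loess offsets (log2 fold change 0.10, adjusted p = 0.239), with a mean count of at least 50 (0.115) and with DESeq2's Wald test (0.133). The Klf6 peak from 5862804 to 5863202 had 16.5 ± 1.49 CPM in old HSCs and 11.6 ± 2.45 CPM in young HSCs, a log2 fold change of 0.51 ± 0.17. Its call was lost without old replicate 1 or 2 or young replicate 3 or 4 (adjusted p = 0.0502, 0.0781, 0.0902 and 0.119), with a mean count of at least 50 (0.0514) and with DESeq2's Wald test (0.0800). The Klf6 peak from 5844397 to 5845388, at 0.36 (adjusted p = 0.0773), passed without old replicate 4, at 0.49 (0.00229).

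Among the Fos family, Fosb had a run of adjacent peaks that rose. Its strongest peak, on chromosome 7 from 19886896 to 19888066, had 67.0, 72.8, 65.3 and 69.0 CPM in old libraries and 52.5, 64.0, 49.0 and 46.5 CPM in young ones. On the log2 scale the change was 0.37 ± 0.09 (edgeR adjusted p = 0.00461). The next peak, from 19888131 to 19888466, had 15.5, 16.8, 18.5 and 23.6 CPM in old HSCs against 13.1, 13.3, 11.3 and 7.11 CPM in young HSCs, and rose by 0.74 ± 0.19.

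The Fosb peak from 19888640 to 19888844 had 10.2, 13.3, 10.8 and 14.3 CPM in old libraries and 7.23, 7.79, 6.25 and 5.82 CPM in young ones. It changed most in the Fosb window, at 0.84 ± 0.19 (edgeR adjusted p = 0.00352). Against the rest of the window its change was 0.65 ± 0.20 (adjusted p = 0.0292), a call lost without old replicate 2 or 3 or young replicate 3 or 4 (adjusted p = 0.0879, 0.0511, 0.0709 and 0.0832). The fourth of the run, from 19889268 to 19889480, rose by 0.42 ± 0.13, and the call was lost without young replicate 3 (adjusted p = 0.0599) or 4 (0.0803) or with DESeq2's Wald test (0.0552). At all 4 peaks of the run the old libraries lay above the young ones. None of the other 9 tested Fosb peaks passed with all libraries, with log2 fold changes from -0.53 to 0.59, of which 4 were below 0. The lowest, 19.5 kb above the strongest, was lower against the rest of the window (-0.77, edgeR adjusted p = 0.0234), a call lost with old replicate 2 or 3 or young replicate 1, 3 or 4 left out (0.0544 to 0.0843). Its change in level, -0.53 (adjusted p = 0.0750), passed as lower without old replicate 4, at -0.78 (0.00293).

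Fos itself, the founding partner of Jun in AP-1, had small changes. Its strongest peak, on chromosome 12 from 86818209 to 86820070, had 126, 109.6, 94.3 and 83.9 CPM in old libraries and 64.8, 96.8, 111 and 75.0 CPM in young ones. The groups overlapped, and the log2 fold change of 0.25 ± 0.20 did not pass (edgeR adjusted p = 0.445). Its biological coefficient of variation, 0.193, was high for so strong a peak, where the median of the strongest quintile was 0.0752.

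A pair of flanking Fos peaks rose by small amounts. The one from 86812992 to 86813384 had 34.1, 33.2, 33.9 and 33.5 CPM in old libraries against 23.6, 22.9, 29.5 and 29.7 CPM in young ones, a log2 fold change of 0.35 ± 0.11 (edgeR adjusted p = 0.0238). The call was lost without old replicate 1 (adjusted p = 0.0515) or young replicate 1 (0.0774) or 2 (0.0767), or with DESeq2's Wald test (0.0761). The one from 86826384 to 86827468 had 71.4 ± 7.09 CPM in old HSCs and 59.8 ± 1.08 CPM in young HSCs, a log2 fold change of 0.25 ± 0.07, lost without old replicate 1 (adjusted p = 0.0702), with loess offsets (0.0803) and with DESeq2's Wald test (0.0605). The Fos peak from 86798598 to 86799024, at 0.34 (adjusted p = 0.0530), passed without old replicate 4, at 0.43 (0.00647). The largest change in the window, 0.45 ± 0.18 at the peak from 86817160 to 86817519, did not pass (adjusted p = 0.0792). It passed without young replicate 2, at 0.60 (adjusted p = 0.0256). The Fos peak from 86809396 to 86810285 had 43.5 ± 4.39 CPM in old HSCs and 48.6 ± 2.02 CPM in young HSCs and was lower only against the rest of the window (-0.37, edgeR adjusted p = 0.0368), a call lost in 6 of the 8 fits with 1 library left out (0.0557 to 0.101; it held without old replicate 4 or young replicate 3). At the peak from 86817160, old libraries had 15.3, 18.1, 20.8 and 19.6 CPM and young ones 12.4, 17.5, 15.5 and 8.83 CPM.

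Junb, an AP-1 subunit often less activating than Jun, showed a small rise. Its strongest peak, on chromosome 8 from 87499843 to 87500778, had 97.5, 95.5, 106 and 93.0 CPM in old libraries and 73.0, 75.3, 74.8 and 75.0 CPM in young ones. The log2 fold change was 0.40 ± 0.06 (edgeR adjusted p = 0.000172), with a wide gap between the groups. The peak from 87509134 to 87510509 had 74.8, 76.4, 76.3 and 70.3 CPM in old HSCs and 61.8, 64.6, 56.8 and 67.0 CPM in young HSCs, a log2 fold change of 0.25 ± 0.07. Its call was lost without young replicate 3 (adjusted p = 0.0593), with loess offsets (0.0689) and with DESeq2's Wald test (0.0511). The Junb peak from 87502469 to 87502919, at 0.27 (adjusted p = 0.0636), passed without old replicate 4, at 0.33 (0.0182). The log2 fold changes of all 7 tested Junb peaks were above 0, and none rose or fell against the rest of the window.

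Atf3, the stress-induced partner of Jun proteins, had 1 peak that rose. This was its strongest, on chromosome 1 from 193006256 to 193007614, with 41.2, 43.3, 53.0 and 47.1 CPM in old libraries and 30.5, 34.7, 33.0 and 34.3 CPM in young ones. On the log2 scale the change was 0.48 ± 0.09 (edgeR adjusted p = 0.00113), and 0.38 ± 0.13 against the rest of the window, which did not pass (adjusted p = 0.0578). The other 5 tested Atf3 peaks had log2 fold changes of -0.38 to 0.40 and did not pass with all libraries. The lowest of them, from 193021843 to 193022351, passed as lower without old replicate 4, at -0.63 (edgeR adjusted p = 0.0344), against -0.38 (0.273) with it.

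Nr4a1, the nuclear receptor, had peaks that changed in both directions. The peak on chromosome 15 from 101071226 to 101071651 fell, with 17.3, 12.6, 16.1 and 22.3 CPM in old libraries and 27.3, 28.2, 26.0 and 30.2 CPM in young ones. The log2 fold change was -0.71 ± 0.14 (edgeR adjusted p = 0.00149), and the groups did not overlap. Against the rest of the window it was -0.74 ± 0.21 (adjusted p = 0.0203), lost without old replicate 1, 2 or 3 or young replicate 1 or 2 (0.0508 to 0.0712). A neighbour less than 2 kb away, from 101073112 to 101073368, rose, with 13.7, 12.4, 17.3 and 13.0 CPM in old HSCs and 8.63, 10.3, 9.25 and 10.3 CPM in young HSCs. RefSeq lists Grasp and Atg101 as neighbours of Nr4a1, and which gene each peak serves was not tested.

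The other Nr4a1 peaks that rose were from 101084094 to 101085128, by 0.40 ± 0.12, and from 101091417 to 101092187, by 0.42 ± 0.14. In each the lowest old library lay below the highest young one. The call of the peak from 101073112 (log2 fold change 0.54 ± 0.17, edgeR adjusted p = 0.0261) was lost without old replicate 3 (0.103) or young replicate 1 (0.0733) or 3 (0.0617) or with DESeq2's Wald test (0.0769). That of the peak from 101084094 (adjusted p = 0.0203) was lost without old replicate 1 (0.0796) or 3 (0.0528) or young replicate 1 (0.0644) or 2 (0.0640). That of the peak from 101091417 (adjusted p = 0.0371) was lost with each library but old replicate 4 and young replicate 4 left out (0.0570 to 0.119), and with total counts (0.0513), loess offsets (0.0502), a mean count of at least 50 (0.0664) and DESeq2's Wald test (0.0880). The strongest Nr4a1 peak, from 101076503 to 101077331, had 89.7 ± 8.22 CPM in old HSCs and 78.3 ± 11.7 CPM in young HSCs and did not pass (0.19 ± 0.09, adjusted p = 0.164). It passed without old replicate 4 (0.25, adjusted p = 0.0394) or young replicate 4 (0.28, adjusted p = 0.0364). The Nr4a1 peak from 101074252 to 101074895, at 0.30 (adjusted p = 0.0565), passed without old replicate 4, at 0.37 (0.00943).

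At the high end of the Nr4a1 window, 3 adjacent peaks varied more between libraries than any other peaks of that window. Summed, they had 90.1, 52.8, 64.1 and 31.8 CPM in old libraries and 68.1, 67.3, 108 and 119.8 CPM in young ones. Old replicate 1 lay inside the young range and the other 3 old libraries below it. At the largest of them, from 101105479 to 101106913, the levels were 43.0, 19.4, 26.5 and 15.3 CPM in old libraries and 41.0, 35.8, 59.8 and 69.2 CPM in young ones. On the log2 scale the change of -1.01 ± 0.37 did not pass (edgeR adjusted p = 0.112) with all libraries, and passed without old replicate 1, at -1.33 (adjusted p = 0.0296). Set against the rest of its window in each library, this peak fell by 1.10 on the log2 scale (SE 0.22; edgeR adjusted p = 0.00447).

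**Figure D4:**
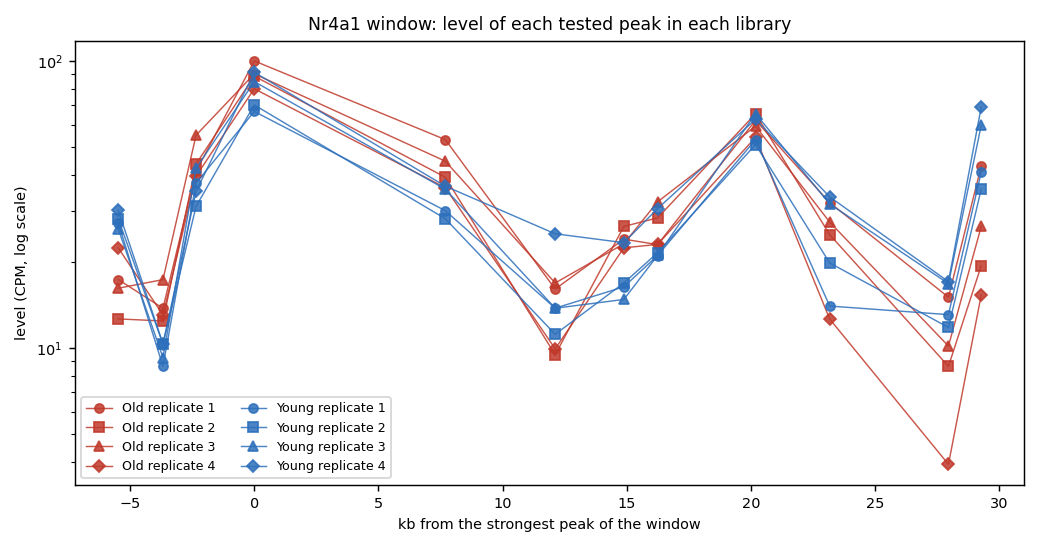
Level in CPM (log scale) of the 12 tested peaks of the Nr4a1 window in each old (red) and young (blue) library, against the distance in kb from the strongest peak. The libraries fan out at the 3 peaks on the right, where old replicate 4 is lowest, while at the peak 5.5 kb below the strongest one all old libraries lie below all young ones.

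The strongest peak of each window, chosen by CPM and not by density, was also measured per kb of its width. Narrower peaks can hold more per kb, as the Fosb peak from 19889268 did, with 26.6 CPM over 212 bases in old HSCs. The values therefore compare these peaks and do not rank the loci. The Egr1 peak had the most, with 124 ± 7.97 CPM per kb in old HSCs and 106 ± 7.14 in young HSCs (SD, n = 4 each). Nr4a1 (108 ± 9.93 in old, 94.5 ± 14.1 in young), Jun (105 ± 4.97 in old, 81.8 ± 8.51 in young) and Junb (105 ± 6.19 in old, 79.7 ± 1.11 in young) followed and did not differ beyond their spread in old libraries. Klf6 had 87.0 ± 4.40 CPM per kb in old HSCs and 77.0 ± 2.99 in young HSCs. Fosb had 58.6 ± 2.77 in old HSCs and 45.3 ± 6.59 in young HSCs, and Fos 55.6 ± 9.87 in old and 46.7 ± 11.3 in young, within each other's spread. The strongest Atf3 peak had the least, at 34.0 ± 3.82 CPM per kb in old HSCs and 24.4 ± 1.38 in young HSCs.

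**Figure D5:**
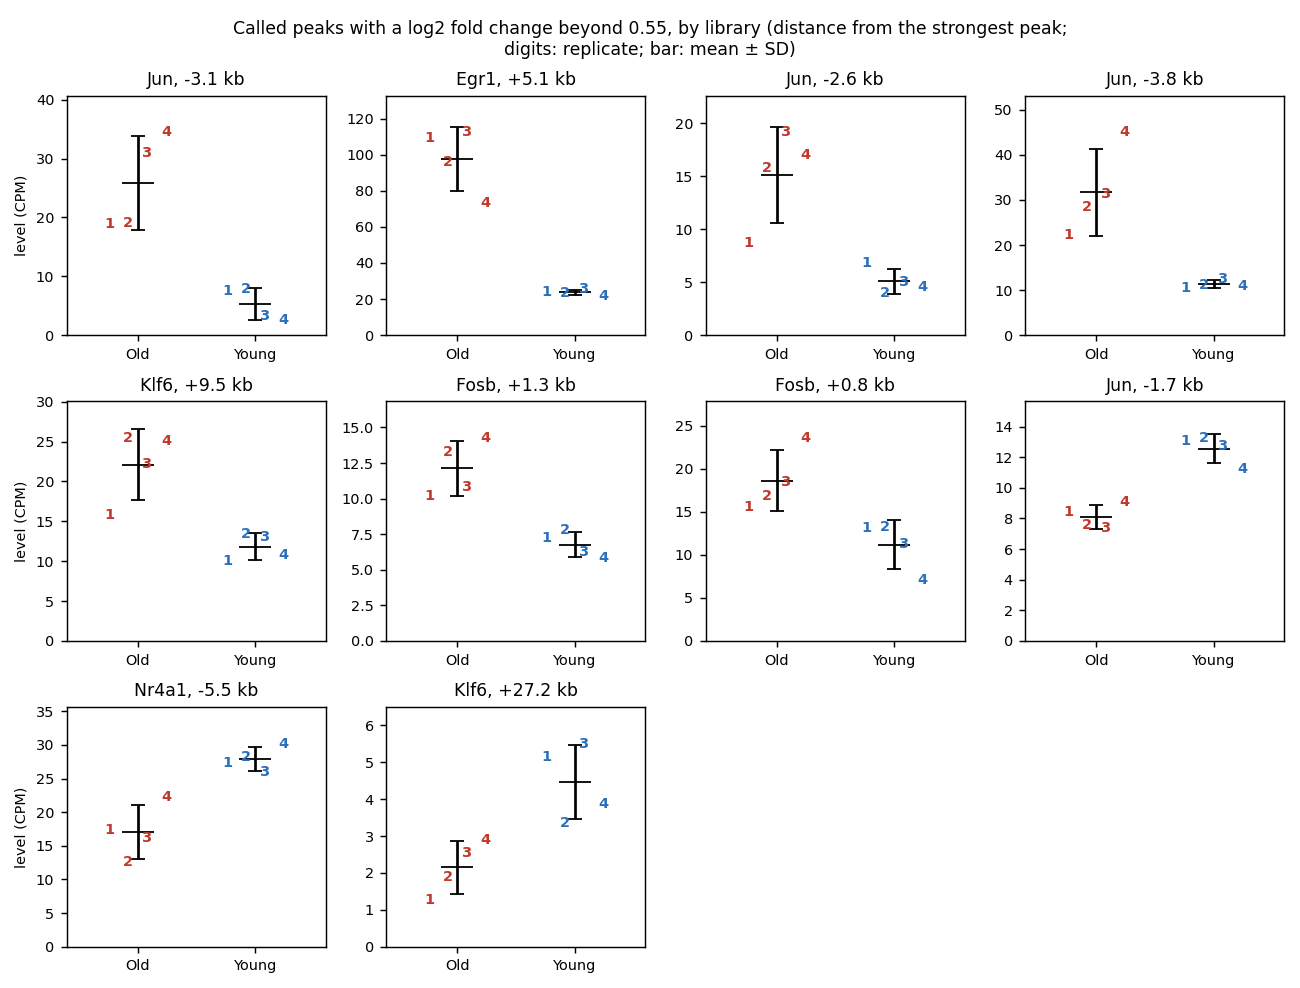
Level in CPM in each old (red) and young (blue) library of the 10 called peaks with the largest changes, each named by its locus and its distance in kb from the strongest peak, with digits for replicates and bars for the mean ± SD of 4 libraries. In each panel the old and young libraries do not overlap, with old above young at 7 peaks and below at 3. The peaks were picked as called and most changed, which favours such a gap. Of all tested peaks, 10.5% had all old libraries above all young ones and 10.6% below.

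The place of old replicate 4 between the groups differed between member peaks. Each level in log2 CPM was put on a scale with the average of young libraries at 0 and that of old replicates 1 to 3 at 1. At peaks called higher without it, its median place was 0.969 over the 27 members and 0.545 over all 10997 such peaks. It was above every young library at 19 of the 27 members (62.5% of all such peaks) and the highest of the 8 libraries at 7 (4.02% of all such peaks). At the 3 Jun peaks with the largest changes its place was 1.59, 1.29 and 1.21. At the Egr1 peak from 35024586 it was 0.754, and at the Nr4a1 peaks called higher without it 0.169 to 0.757. At the 5 members called lower without it the median place was 0.369, and over all 11802 such peaks 0.423. These peaks were chosen on old replicates 1 to 3, which also set the value 1, so a place below 1 is partly fixed by the choice. Tested members were stronger than all tested peaks (median 22.5 against 6.45 CPM) and less variable (median biological coefficient of variation 0.109 against 0.148). The values for members and for all such peaks are therefore not like with like. The places describe 1 library and carry no test.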

How the data were processed

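The authors deposited raw counts of reads in 1 peak set common to the 8 libraries. Per the submitters' processing notes, the tools were MACS2, Bowtie2, Picard, SAMtools, FastQC and Trim Galore (no versions), with build mm9. The merging of peaks, the counting program and any transposase shift were not given in the sources used here. Peaks called on the libraries compared may favour sites open in either group.

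From the deposited counts, CPM values were computed with TMM scaling. Peaks were kept with filterByExpr (minimum count 10, minimum total 15), leaving 73164 peaks with 94.2% of the counts. The test of old against young was edgeR 4.0.16 in R 4.3.3 (glmQLFit, robust; group as the single term), with an adjusted p threshold of 0.05. Window sums were fitted with sums over 50 kb tiles of all other peaks. The relative test used the counts of the other tested peaks in the window or tile as offset, at least 10 per library. It replaced the planned diffSpliceDGE test, which pools residuals over the peaks of a window. Each test was tested on simulated data. The place of old replicate 4 used a pseudocount of 0.5 CPM.

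The members and lists were chosen with earlier results of these data known. Peaks named were the strongest and the most changed tested peak of each window and every called member. Others named to fill a locus were chosen after their values were seen. Alternatives were DESeq2 1.42.0 (size factors, Wald test), total counts, loess offsets, limma 3.58.1 voom, other filters, a replicate block, 100 kb tiles and each library left out. With 4 libraries a group, n limits precision. Promoter sequences are from RefSeq (GRCm38.p6).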

Additional observations from a re-analysis of the deposited data

Results flagged for a closer look

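Of 74 sets of 4 values (each named peak and window sum, in each group), 2 held a library far from the other 3, where about 1 in 20, or 3.7, would be flagged by chance. Both concern young replicate 4 at Klf6. They are not separate, since the strongest peak held on average 48.5% of the Klf6 window's counts in young libraries. Named peaks are part of their window sums throughout, so the number given for chance is rough. It was the lowest young library at the strongest Klf6 peak, with 75.6 CPM against 81.4 to 82.1 CPM in the others. It was also the lowest for the Klf6 window sum, with 146 CPM against 161 to 163 CPM. Without young replicate 4 the log2 fold change, old over young, of the strongest Klf6 peak was 0.15 (edgeR adjusted p = 0.128), and the Klf6 window kept its call.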

How the results depend on the processing

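With all 8 libraries 22 member peaks were called higher and 3 lower, 6 windows higher and 0 lower, and 7 peaks higher and 9 lower against the rest of their window. DESeq2's Wald test called 14 member peaks higher, and over all 73164 peaks it called 4993 higher, against 7352 with edgeR. A mean count of at least 50 left 1 called lower. The Jun and Klf6 peaks called lower fell below that filter and were not tested with it. With each library left out in turn, 17 to 27 member peaks were higher and 2 to 5 lower (5 without old replicate 4), 5 or 6 windows were higher, and 5 to 8 peaks were higher and 4 to 12 lower against the rest (5 without old replicate 2 and 4 without old replicate 3). Over all tested peaks, 5184 to 10997 were higher and 5199 to 11802 lower in these fits, with the fewest without old replicate 2 and the most without old replicate 4. With all libraries 7352 were higher and 7634 lower. Calls were more without old replicate 4 or young replicate 2 (7617 and 7949 without the latter) and fewer without each other library. A test has less power with fewer libraries, and the causes of these differences were not tested. No called value changed direction in the alternatives run; the Nr4a1 window, not called, ran from -0.08 to 0.08. Of the 22 higher calls 13, and of the 3 lower calls 2, passed with each library left out. Among the called Jun peaks all 6 passed in every alternative that tested them, as did the Egr1 peak from 35024586, the Fosb peaks from 19886896, 19888131 and 19888640, the Klf6 peak from 5869631, the Nr4a1 peak from 101071226 and the strongest Atf3 and Junb peaks. Over all tested peaks the median log2 fold change was 0.01, and -0.02 with total counts. The relative test was not run with loess offsets, DESeq2's test or voom.

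Deviations of same-numbered old and young libraries from their group means had r of -0.01, 0.07, 0.05 and 0.18 for replicates 1 to 4. The value for replicate 4 was the highest of any old with any young library, and old replicate 4 had -0.13 with young replicate 2. The cause was not tested. Not every library correlated best with its own number, so the numbers were not taken as pairs. With the replicate number as a block 28 member peaks were higher and 4 lower, 6 windows were higher, and 8 peaks were higher and 11 lower against the rest, while over all peaks 8111 were higher and 8647 lower, against 7352 and 7634 without it. Of the 10 weak peaks left out by the filter, 1 (Jun, from 94704670) was called higher and 9 were not called when no filter was used; at 0 to 19 counts per library depth limits them.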

Other observations

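Within the groups, no library was highest or lowest at most of the 69 tested members. Old replicate 4 was the highest old library at 26 and the lowest at 22, and the other old libraries were highest at 13 to 16. Young replicate 4 was the highest young library at 25 and the lowest at 19, and young replicate 1 was highest at 6 and lowest at 20. The median biological coefficient of variation of the members was 0.109, against 0.148 for all tested peaks and 0.0752 for the strongest quintile. Members were narrower than tested peaks at large, with a median width of 562 against 620.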
